A study of Mus musculus with 24 samples.

Results

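Photoreceptors hold their dark current and their resting potential with a set of channels and pumps in the inner segment, the soma and the terminal, and 4 genes of this set, Kcnv2, Atp1b2, Ano2 and Atp2b1, were followed through the degeneration of the rd10 retina and its treatment. They were chosen by name, as the rows of these 4 symbols among the 31346 nuclear genes of the count table, with earlier results of these data known. Kcnv2 encodes Kv8.2, a potassium channel subunit that forms no channel on its own and joins other voltage-gated subunits in the inner segment, where the channel gives the current that opposes the light-sensitive conductance in the dark. Atp1b2 encodes the beta-2 subunit of the Na,K-ATPase, which extrudes the sodium that enters the outer segment. A beta subunit pairs with a catalytic alpha subunit, and the product of Atp1b2 is also known from glia as an adhesion molecule. Ano2 encodes TMEM16B, a calcium-activated chloride channel known in mouse retina from photoreceptor terminals. Atp2b1 encodes PMCA1, a plasma membrane pump that exports calcium and that most cell types express.

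RNA was sequenced from whole retinas in 24 libraries, 1 per mouse. The study's methods do not say whether a library held 1 or both retinas of a mouse, and each library is called a retina here. In rd10 mice a missense change in Pde6b, which encodes a catalytic subunit of the phosphodiesterase of rods, leads to rod loss that darkness slows, and the line is on a C57BL/6J background. The groups were rd10 mice fed tamsulosin (a blocker of alpha-1 adrenergic receptors), metoprolol (a blocker of beta-1 receptors) and bromocriptine (which activates dopamine receptors) in their diet from postnatal day 28 (rd10 TMB, n = 8), rd10 mice on base diet (rd10 vehicle, n = 8), rd10 mice kept in darkness throughout (rd10 DR, n = 4), and C57BL/6J mice (WT, n = 4). The rd10 TMB and rd10 vehicle mice were dark-reared and then housed in cyclic light from day 29. The condition label of the WT mice names no rearing, so rearing may differ between them and the rd10 mice. For rd10 TMB, rd10 vehicle and WT mice the labels give the age as day 36 and the design text as day 37. The rd10 DR mice never saw light, and their age is day 30 in the labels and day 28 in the design text, so that rd10 DR differs from the other rd10 groups in age as well as in light. Females and males were balanced, with 12 of each. Sample titles of rd10 mice start with RD8, RD9 or RD10, a prefix that no source used here explains and that was taken as a possible batch. RD9 stood on 3 and RD10 on 5 of the rd10 TMB samples, RD8 on 1, RD9 on 3 and RD10 on 4 of the rd10 vehicle samples, and RD10 on each of the 4 rd10 DR samples.

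The libraries held 56799680 to 86471014 nuclear counts. Levels are given as CPM, in which library totals are made equal, after TMM scaling over the 24 libraries, which sets the bulk of genes equal between them. Fold changes come from edgeR's quasi-likelihood test of each pair of groups, with Benjamini-Hochberg adjustment over all genes tested and a call at an adjusted p under 0.05. Pde6b, the mutated gene, still gives counts after a missense change, so its level does not check the labels. It ranged over 898 to 1881 CPM in rd10 TMB, 355 to 1156 CPM in rd10 vehicle and 2162 to 2281 CPM in rd10 DR retinas, against 3499 to 4135 CPM in WT. A list of 14 rod genes (among them Gnat1, Pde6a, Cnga1 and Nrl) summed to 19470 to 39580 CPM in rd10 TMB, 8263 to 25700 CPM in rd10 vehicle and 49530 to 54980 CPM in rd10 DR retinas, against 83080 to 94570 CPM in WT. In whole retina, fewer rods and less RNA per rod cannot be told apart.

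The 4 genes lie on 4 chromosomes of GRCm38 and are protein coding. In GENCODE M21, Kcnv2 spans 27322588 to 27337179 on the plus strand of chromosome 19, Atp1b2 69599736 to 69605942 on the minus strand of chromosome 11, Ano2 125690419 to 126040126 on the plus strand of chromosome 6, and Atp2b1 98914406 to 99026143 on the plus strand of chromosome 10. Ano2 overlaps a processed pseudogene and a small nuclear RNA gene on its own strand, and the other 3 overlap no annotated gene. Promoter windows of 250 bases before to 50 bases after a start, from RefSeq on GRCm38.p6, were at hand for 2 of the 4 genes, Ano2 with 3 starts and Atp2b1 with 2. They were searched on both strands for TAATCC, the core motif of CRX, and TGCTGA, a part of the motif of NRL, which are transcription factors of photoreceptors. These motifs do not overlap each other. Of the 3 Ano2 windows 1 held TAATCC once and 1 held TGCTGA once, and both Atp2b1 windows held neither. Of 32851 promoter windows of the same length, 7.1% held TAATCC and 19.5% held TGCTGA, and a match describes these letters only. The 2 Ano2 windows with a match (capitals) and the first Atp2b1 window are shown because, of the genes with windows at hand, Ano2 fell with the rod genes and Atp2b1 did not. GC content was 59.3% and 57.3% in these Ano2 windows and 79.3% in the Atp2b1 window.
Ano2, first start, chr6:125690169-125690468, plus strand: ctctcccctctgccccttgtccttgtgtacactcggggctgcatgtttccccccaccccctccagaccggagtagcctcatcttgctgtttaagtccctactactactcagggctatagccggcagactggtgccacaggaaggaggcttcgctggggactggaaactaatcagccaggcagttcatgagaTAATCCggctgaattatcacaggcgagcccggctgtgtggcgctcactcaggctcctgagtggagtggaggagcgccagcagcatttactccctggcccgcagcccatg
Ano2, downstream start, chr6:125710938-125711237, plus strand: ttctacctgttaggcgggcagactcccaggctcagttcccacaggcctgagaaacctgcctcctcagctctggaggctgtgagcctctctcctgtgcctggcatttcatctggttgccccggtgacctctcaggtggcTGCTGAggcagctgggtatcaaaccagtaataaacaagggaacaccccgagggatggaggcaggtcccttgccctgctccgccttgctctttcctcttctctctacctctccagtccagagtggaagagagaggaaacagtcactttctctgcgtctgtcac
Atp2b1, first start, chr10:98914392-98914691, plus strand: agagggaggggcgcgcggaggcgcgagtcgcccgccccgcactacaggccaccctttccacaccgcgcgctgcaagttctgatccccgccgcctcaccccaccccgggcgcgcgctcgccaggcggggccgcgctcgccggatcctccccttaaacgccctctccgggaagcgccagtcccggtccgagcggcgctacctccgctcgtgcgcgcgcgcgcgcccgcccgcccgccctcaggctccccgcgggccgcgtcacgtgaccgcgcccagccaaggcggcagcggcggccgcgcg

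The 4 genes had different levels. Per kilobase of exon (all annotated exons merged, which understates genes with long or rarely used exons), WT retinas had 431 CPM per kb of Atp1b2, 132 of Kcnv2, 34.1 of Atp2b1 and 29.9 of Ano2. Atp2b1 and Ano2 were neighbours whose WT ranges overlapped, at 31.7 to 35.5 and 27.0 to 32.2 CPM per kb, while the ranges of the others did not. In rd10 vehicle retinas Atp1b2 still led with 369 CPM per kb, Atp2b1 followed with 39.1, Kcnv2 with 26.0 and Ano2 with 9.98. The ranges of Atp2b1 (36.5 to 41.4) and Kcnv2 (17.1 to 37.2) overlapped there. By its mean Kcnv2 stood above Atp2b1 in rd10 TMB (44.2 and 39.4 CPM per kb, with overlapping ranges), rd10 DR and WT retinas, and below it in rd10 vehicle retinas.

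**Figure D1:**
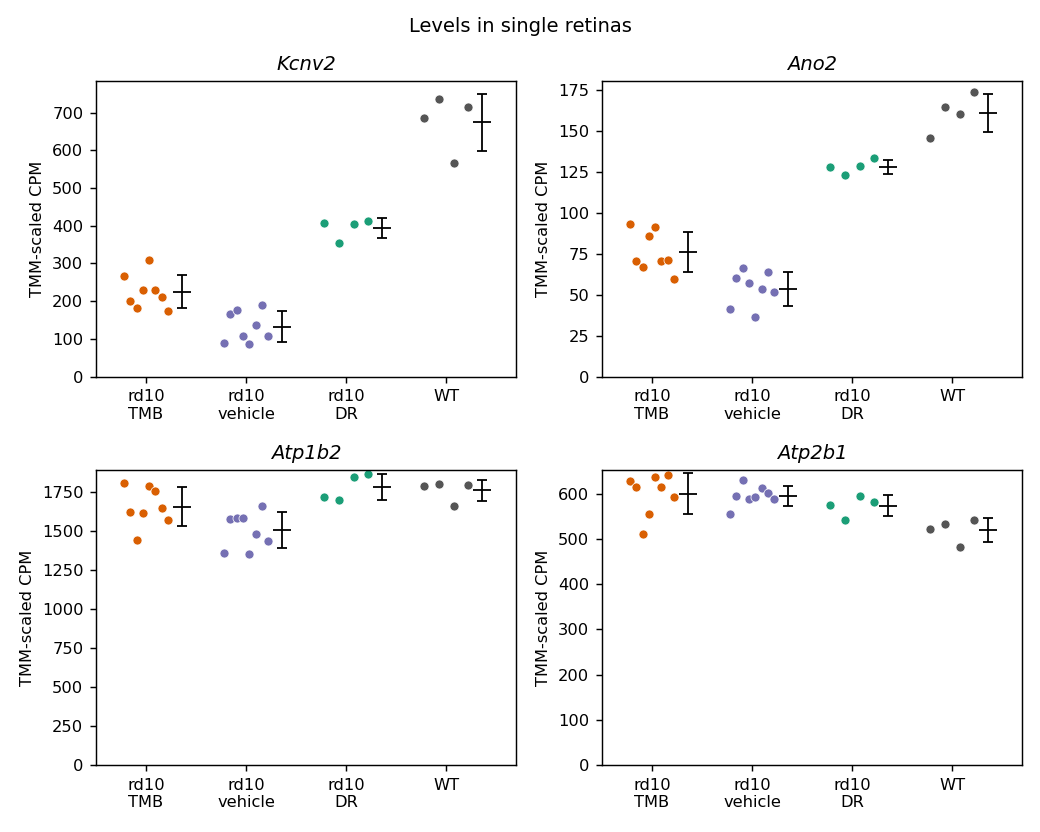
TMM-scaled CPM (y axis, from 0) of Kcnv2, Ano2, Atp1b2 and Atp2b1 in each of the 24 retinas, by group on the x axis, with 1 point per retina and the mean ± SD beside the points. Kcnv2 and Ano2 are lowest in rd10 vehicle (36.4 to 66.0 CPM for Ano2, against 145 to 173 CPM in WT), while Atp1b2 and Atp2b1 stay within a narrow band (Atp2b1 from 482 to 640 CPM over all 24 retinas).

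Untreated disease was measured as rd10 vehicle against WT. Kcnv2 fell 5.06-fold and Ano2 2.99-fold, Atp1b2 was 1.17-fold lower, and Atp2b1 was 1.15-fold higher. All 4 were called, where 61.8% of the genes tested were called, so that the sizes tell more here than the calls. The share of all genes whose groups did not overlap was not counted. A lack of overlap, here and below, therefore only describes the values of these genes. Kcnv2 had 87.2, 123 and 190 CPM in rd10 vehicle retinas (lowest, median and highest), against 684, 735, 565 and 714 CPM in WT. Every rd10 vehicle retina lay far below every WT retina. The log2 fold change was -2.34 (SE 0.19, adjusted p = 1.55e-07), beside a median of -2.32 over the 14 rod genes, all of which fell, and 0.01 over all genes. Ano2 had 36.4, 55.3 and 66.0 CPM in rd10 vehicle retinas, against 145, 164, 160 and 173 CPM in WT. The groups again did not overlap, and the log2 fold change was -1.58 (SE 0.13, adjusted p = 1.45e-07), less than that of any rod gene but the one with the smallest fall (-1.42).

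Atp1b2 had 1355, 1529 and 1662 CPM in rd10 vehicle retinas, against 1789, 1799, 1661 and 1798 CPM in WT, and 7 of 8 rd10 vehicle retinas were below every WT retina. Its log2 fold change of -0.22 (SE 0.06, adjusted p = 0.00571) rested on the scaling. Without TMM, which moved the median of all genes to 0.22, it was -0.02 (adjusted p = 0.747), and with only the RD9 retinas of the rd10 vehicle group it was -0.12 (adjusted p = 0.143). Atp2b1 had 555, 593 and 630 CPM in rd10 vehicle retinas, against 522, 533, 482 and 541 CPM in WT, without overlap, and its log2 fold change was 0.20 (SE 0.05, adjusted p = 0.00162). It was higher under every alternative, with log2 fold changes of 0.16 to 0.40. The lists of other cell types rose beside these small shifts, with 8 of 8 Müller glia genes (7895 to 8789 CPM summed in rd10 vehicle, against 3727 to 5011 CPM in WT), 11 of 12 bipolar genes (3122 to 3799 CPM, against 1903 to 2206 CPM) and 8 of 8 microglia genes (334 to 379 CPM, against 67.8 to 99.7 CPM) called higher. Their part in the values of Atp1b2 and Atp2b1 was not tested.

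With the drug diet Kcnv2 and Ano2 were also below WT, by 2.98-fold and 2.11-fold, Atp2b1 was 1.16-fold higher, and Atp1b2 did not pass the test. That made 3 of 4 genes called, where 52.2% of genes tested were. Kcnv2 had 174, 221 and 309 CPM in rd10 TMB retinas (lowest, median and highest) and Ano2 59.7, 70.8 and 93.1 CPM, all below the WT retinas. The log2 fold changes were -1.58 for Kcnv2 (SE 0.13, adjusted p = 3.13e-07) and -1.08 for Ano2 (SE 0.10, adjusted p = 1.2e-06), beside a rod median of -1.56. Atp2b1 had 511, 615 and 640 CPM in rd10 TMB retinas, and 7 of 8 exceeded every WT retina (log2 fold change 0.21, SE 0.06, adjusted p = 0.00962). With the RD10 retinas of the rd10 TMB group alone the adjusted p was 0.0612. Atp1b2 had 1440, 1636 and 1805 CPM in rd10 TMB retinas, which overlapped the WT retinas, and its log2 fold change was -0.09 (SE 0.06, adjusted p = 0.229).

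Rd10 DR retinas were taken before any light, at a younger age. Kcnv2 had 406, 354, 405 and 412 CPM in rd10 DR retinas, and Ano2 128, 123, 128 and 133 CPM. All 8 values were below those of WT, and Kcnv2 was 1.69-fold lower (log2 fold change -0.76, SE 0.07, adjusted p = 6.28e-05) and Ano2 1.24-fold lower (log2 fold change -0.31, SE 0.06, adjusted p = 0.00277), beside a rod median of -0.75. Of the 4 genes 3 were called, where 24.7% of genes tested were. The third was Atp2b1, with 575, 542, 595 and 582 CPM in rd10 DR retinas, each above every WT retina, and a log2 fold change of 0.16 (SE 0.05, adjusted p = 0.0255). That call was the weakest, since it was lost without any single retina but rd10 DR 2 (7 of 8 refits, adjusted p up to 0.101) and in 1 fit over all groups (adjusted p = 0.0816), in which Ano2 was not called either (adjusted p = 0.0993). Atp1b2 had 1716, 1702, 1843 and 1867 CPM in rd10 DR retinas, around the WT values, with a log2 fold change of 0.04 (SE 0.05, adjusted p = 0.611), and of 0.12 without TMM (adjusted p = 0.0448). Of other cells, 5 of 5 erythrocyte genes were higher in rd10 DR than in WT (median 1.62) and 3 of 5 pigment epithelium genes lower (median -1.32), and their part in these values was not tested.

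The comparison of rd10 TMB with rd10 vehicle retinas asks what the drug diet changed after the move to light. Kcnv2 was 1.70-fold and Ano2 1.41-fold higher with the diet, while Atp1b2 and Atp2b1 did not pass the test. These are 2 of 4 genes called, where 5.69% of genes tested were. For Kcnv2 all 8 rd10 TMB retinas were above the rd10 vehicle mean and 6 of 8 above every rd10 vehicle retina, and the log2 fold change was 0.76 (SE 0.16, adjusted p = 0.0245), beside a rod median of 0.76 with 13 of 14 rod genes called higher. For Ano2 7 of 8 rd10 TMB retinas exceeded every rd10 vehicle retina (log2 fold change 0.50, SE 0.12, adjusted p = 0.0263). Both groups spread widely and overlapped. Both calls were near the threshold and were lost without rd10 vehicle 1 (Kcnv2 0.70, adjusted p = 0.056, and Ano2 0.45, adjusted p = 0.0584), without rd10 vehicle 5 (0.69, 0.0505 and 0.43, 0.0531) and without rd10 TMB 5 (0.68, 0.0524 and 0.46, 0.0587), and that of Ano2 also without rd10 TMB 4 (0.47, 0.0531). Rd10 vehicle 1 and 5 had the lowest levels of both genes in their group. The losses were not particular to these 2 genes. Over all genes the calls went from 1152 to 2 without rd10 vehicle 1 and to 3 without rd10 vehicle 5. They went to 119 without rd10 TMB 5 and to 220 without rd10 TMB 4.

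Within the title prefixes the differences kept their size but not their calls. Among RD9 retinas (3 against 3) the log2 fold changes were 0.83 for Kcnv2 and 0.54 for Ano2 (adjusted p = 0.148 and 0.118), and among RD10 retinas (5 against 4) they were 0.66 and 0.47 (adjusted p = 0.22 and 0.248). With so few retinas edgeR called 0 of 20347 genes among RD9 retinas (3065 at an unadjusted p under 0.05) and 12 of 20604 among RD10 retinas. With the prefix as a covariate both genes stayed called (adjusted p = 0.028 and 0.0289). The effect of the diet differed between males and females by 0.13 for Kcnv2 and 0.02 for Ano2 on the log2 scale (male minus female, edgeR interaction term, adjusted p = 0.9995 for both). Atp1b2 was higher than the rd10 vehicle mean in 7 of 8 rd10 TMB retinas, with a log2 fold change of 0.13 (SE 0.05, adjusted p = 0.133). For Atp2b1 it was 0.01 (SE 0.04, adjusted p = 0.951), with a 95% interval from -0.08 to 0.09, and the sign turned without TMM (-0.03). Markers of the pigment epithelium were uneven in rd10 TMB retinas, where 5 genes summed to 507, 704 and 779 CPM in rd10 TMB 2, 3 and 4, and to 136 to 191 CPM in the other 5, against 96.4 to 244 CPM in rd10 vehicle. Of these 5 genes edgeR called 0 between the diets (4 at an unadjusted p under 0.05) and DESeq2 2. Without rd10 TMB 2 or 3 the calls of Kcnv2 and Ano2 stood, and without rd10 TMB 4, which had the highest sum, that of Kcnv2 stood and that of Ano2 was lost (adjusted p = 0.0531).

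Against rd10 DR, the state near the start of treatment, Kcnv2 and Ano2 were lower on either diet. In rd10 vehicle retinas they were 2.97-fold and 2.39-fold lower than in rd10 DR (log2 fold changes -1.57, SE 0.18, adjusted p = 1.18e-05, and -1.26, SE 0.12, adjusted p = 4.47e-06), and no rd10 vehicle retina reached any rd10 DR retina. Atp1b2 was 1.18-fold lower, again without overlap (-0.24, SE 0.06, adjusted p = 0.004), though with RD9 retinas alone the adjusted p was 0.0643. Of the 4 genes 3 were called, where 42.6% of genes tested were, and Atp2b1 was not (0.05, SE 0.04, adjusted p = 0.337), but it was without TMM (0.15, adjusted p = 0.0053). In rd10 TMB retinas Kcnv2 was 1.76-fold and Ano2 1.69-fold lower than in rd10 DR (log2 fold changes -0.81, SE 0.12, adjusted p = 0.000256, and -0.76, SE 0.10, adjusted p = 0.000108), without overlap. These were 2 of 4 genes called, where 23% of genes tested were. Atp1b2 (-0.11, adjusted p = 0.169) and Atp2b1 (0.06, adjusted p = 0.529) were not called there. Of other cells, 4 of 5 pigment epithelium genes were higher than in rd10 DR in rd10 TMB (median 3.07) and in rd10 vehicle (median 1.76), and 5 of 5 erythrocyte genes were lower in rd10 vehicle than in rd10 DR (median -1.74). Their part in these values was not tested. The 6 comparisons share groups, so their values are not independent of each other.

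**Figure D2:**
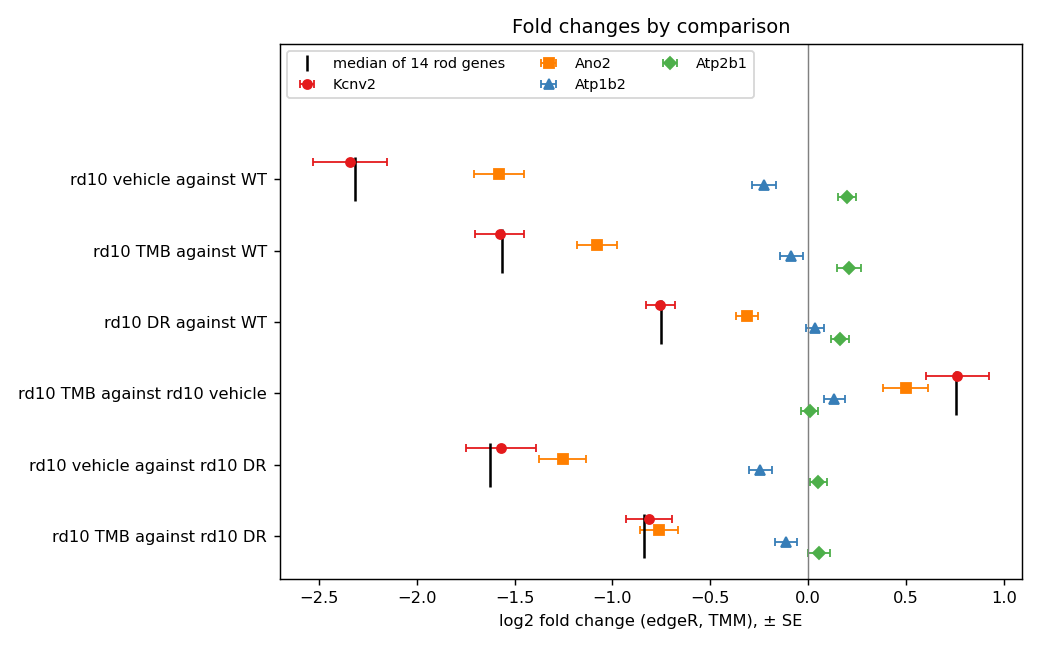
Log2 fold change of the 4 genes (x axis, edgeR with TMM, error bars SE) in the 6 comparisons (y axis), with a black bar at the median of 14 rod genes. Kcnv2 lies close to the rod median in each comparison (-2.34 beside -2.32 for rd10 vehicle against WT), Ano2 moves the same way by less, and Atp1b2 and Atp2b1 stay within 0.25 log2 units of 0.

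The next comparison asked whether each gene moved more or less than the rods of the same retina. The mean log2 CPM of the 14 rod genes was subtracted from the log2 CPM of the gene in each retina, and groups were compared by exact two-sided permutation tests with adjustment over the 24 tests. Kcnv2 differed little between groups relative to the mean of the rod genes. Its mean lay at -2.08 in rd10 TMB, -2.06 in rd10 vehicle, -2.10 in rd10 DR and -2.07 in WT retinas, and the 6 differences between groups were -0.03 to 0.05 (SE 0.05 to 0.07, adjusted p 0.692 to 0.903 by exact permutation). A lack of difference is not shown by these tests. Set against the median rod gene in place of the mean, Kcnv2 was higher than in WT in each rd10 group. The differences were 0.14 in rd10 vehicle, 0.16 in rd10 TMB and 0.13 in rd10 DR. Only that of rd10 TMB passed the threshold (exact permutation test, adjusted p = 0.0298).

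Ano2 fell less than the rod genes. Relative to them it was 0.80 higher in rd10 vehicle, 0.49 higher in rd10 TMB and 0.41 higher in rd10 DR than in WT on the log2 scale (exact permutation tests, p = 0.00202, 0.00202 and 0.0286, the smallest these group sizes allow, adjusted p = 0.00435, 0.00435 and 0.0403). In rd10 TMB it was 0.31 lower than in rd10 vehicle relative to the rod genes (exact permutation test, adjusted p = 0.0298), as the rod genes differed by more than Ano2. Atp1b2 and Atp2b1 followed the rods least. Relative to the rod genes they were 2.18 and 2.61 higher in rd10 vehicle than in WT, 1.50 and 1.79 higher in rd10 TMB than in WT, and 0.75 and 0.88 higher in rd10 DR than in WT, with no overlap of retinas (exact permutation tests, adjusted p = 0.00435 for rd10 vehicle and rd10 TMB and 0.0403 for rd10 DR). With the diet they were 0.68 and 0.81 lower relative to the rod genes than on base diet (exact permutation tests, adjusted p = 0.00435 for both). Both genes changed little themselves, so these differences and their p-values mostly restate the shift of the rod genes. They are no separate result about Atp1b2 and Atp2b1.

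**Figure D3:**
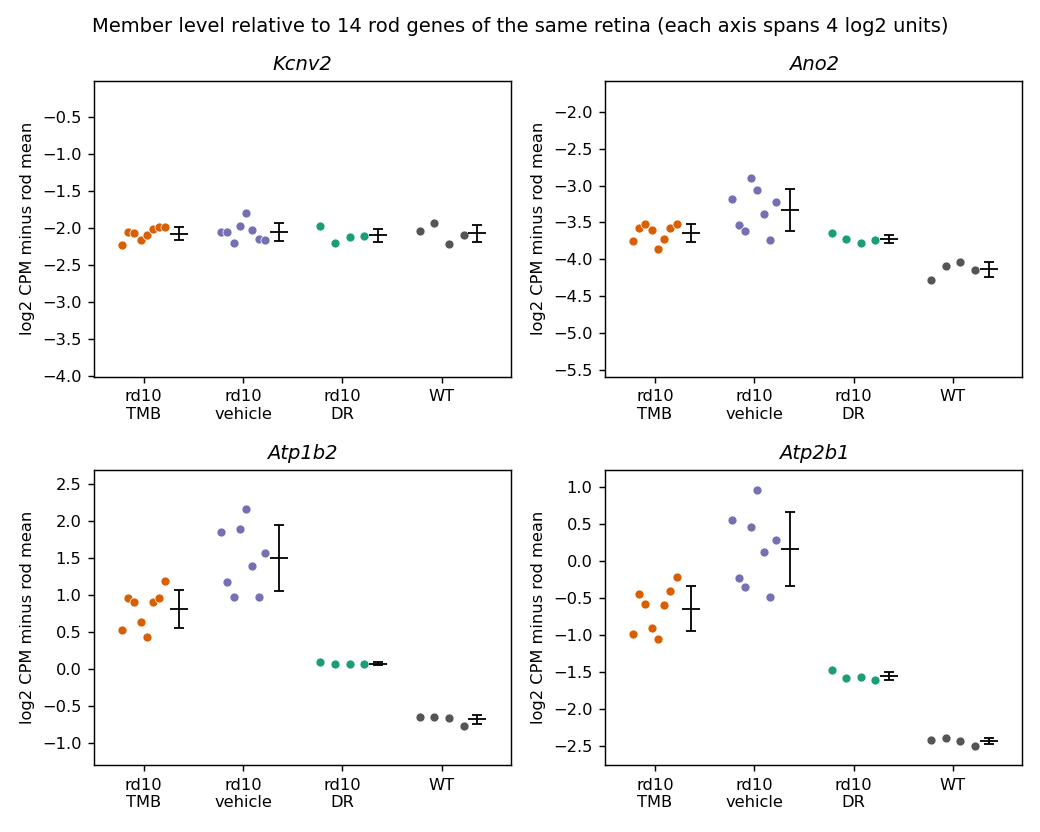
Log2 CPM of each gene minus the mean log2 CPM of 14 rod genes in the same retina (y axis, each spanning 4 log2 units), 1 point per retina by group, with mean ± SD. Kcnv2 lies between -2.23 and -1.80 in all 24 retinas, Ano2 is highest in rd10 vehicle (mean -3.33, against -4.13 in WT), and Atp1b2 and Atp2b1 separate WT, rd10 DR and the 2 light-exposed rd10 groups. For Atp1b2 and Atp2b1 this mostly restates the shift of the rod mean.

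Retinas of 1 group also differed in how much rod RNA they held, and this spread was set against the 4 genes within the rd10 TMB and rd10 vehicle groups (8 relations, added after the levels had been seen, with exact permutation over pairings). Kcnv2 followed the mean of the rod genes closely in rd10 TMB (Pearson r = 0.978, permutation p = 2.48e-05, adjusted p = 0.000198, Spearman rho = 1, permutation p = 4.96e-05) and in rd10 vehicle (r = 0.982, permutation p = 4.96e-05, adjusted p = 0.000198, rho = 0.976, permutation p = 0.000397). Without the 2 retinas farthest from the median rod level, r was 0.955 and 0.982. Ano2 gave r = 0.968 in rd10 TMB (permutation p = 0.000273, adjusted p = 0.000728, rho = 0.905, permutation p = 0.00456) and 0.909 in rd10 vehicle (permutation p = 0.000819, adjusted p = 0.00164, rho = 0.905, permutation p = 0.00456), and 0.938 and 0.834 without those 2 retinas. Atp1b2 gave r = 0.781 in rd10 TMB (permutation p = 0.0215, adjusted p = 0.0287, rho = 0.81, permutation p = 0.0218) and 0.837 in rd10 vehicle (permutation p = 0.0142, adjusted p = 0.0228, rho = 0.762, permutation p = 0.0368). Without the 2 farthest retinas these were 0.531 and 0.658 (permutation p = 0.254 and 0.174). With 6 retinas left over a narrower range, these values cannot tell whether the relation rested on the 2 removed. Atp2b1 gave r = 0.41 in rd10 TMB (permutation p = 0.315, adjusted p = 0.315, rho = 0.476, permutation p = 0.243) and 0.646 in rd10 vehicle (permutation p = 0.0756, adjusted p = 0.0864, rho = 0.714, permutation p = 0.0576), and 0.06 and 0.848 without the 2 farthest retinas (permutation p = 0.915 and 0.0333). The title prefixes hold 3 to 5 retinas per group, too few for a value within each.

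**Figure D4:**
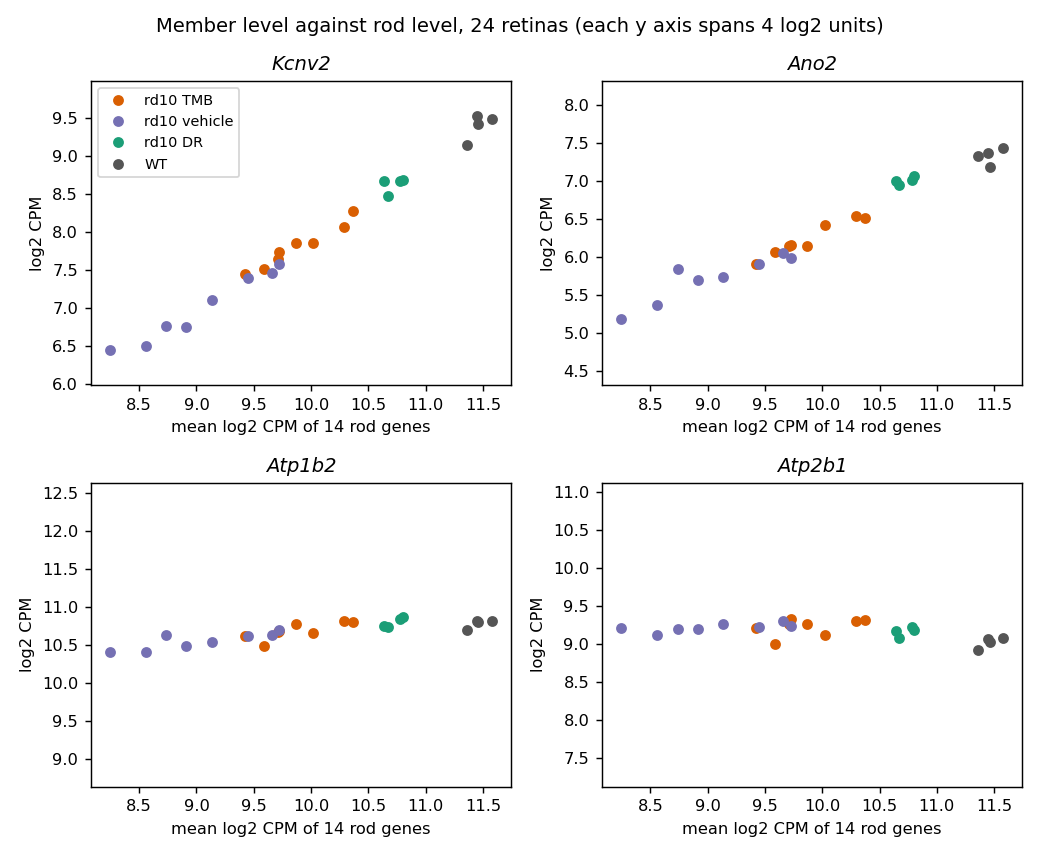
Log2 CPM of each gene (y axis, each spanning 4 log2 units) against the mean log2 CPM of 14 rod genes (x axis) in the 24 retinas, coloured by group. Kcnv2 forms 1 line through all groups, with r = 0.982 within rd10 vehicle, Ano2 a flatter one, Atp1b2 a slight slope and Atp2b1 a weak slope the other way between groups.

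Each gene was next set beside its partner subunits and relatives. Among 10 other voltage-gated potassium channel subunits, of the Kcnb, Kcng, Kcns and Kcnv families, 7 were higher in rd10 vehicle than in WT, with a list median of 0.52 beside 0.01 over all genes. Kcng1, a silent subunit with under 3 CPM in each group's mean, had the largest rise (1.96, adjusted p = 8.57e-08), followed by Kcng3 (1.13) and Kcng4 (1.02), and Kcnb2 rose by 0.50. In rd10 TMB against rd10 vehicle Kcng4 was the 1 relative called lower (-0.15, adjusted p = 0.048).

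Both other beta subunits of the Na,K-ATPase were higher in rd10 vehicle than in WT, Atp1b1 by 0.32 (adjusted p = 3.15e-05) and Atp1b3 by 0.61 (adjusted p = 0.0163), where Atp1b2 was lower. Atp1b3 spread widely in WT (47.6 to 134 CPM) and overlapped the rd10 vehicle retinas (106 to 135 CPM). Of the beta subunit RNA per exon length, Atp1b2 made up 62.2% ± 2.5 in rd10 TMB, 58.6% ± 2.4 in rd10 vehicle, 66.1% ± 0.45 in rd10 DR and 68.2% ± 2.8 in WT retinas (SD), so it was the main beta subunit in each group. In the list of 13 other Na,K-ATPase subunits and FXYD regulators, 12 passed the filter, and 7 were higher and 2 lower in rd10 vehicle than in WT (median 0.54), and both lower calls were lost without TMM. Small FXYD regulators of the pump led, with Fxyd3 at 2.67 (from under 1 CPM in WT), Fxyd5 at 1.38 and Fxyd1, which is abundant in glia, at 1.23. Fxyd1 was the 1 gene of this list called between the diets (-0.28, adjusted p = 0.025).

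The other 3 PMCA genes had larger log2 fold changes than Atp2b1. In rd10 vehicle against WT, Atp2b2 (PMCA2) rose by 0.61 (adjusted p = 8.62e-07), Atp2b3 by 0.60 (adjusted p = 8.67e-07) and Atp2b4 by 0.40 (adjusted p = 2.19e-05), and the sodium-calcium exchanger Slc8a1 by 0.68 (adjusted p = 4.3e-07). Of the 12 genes of calcium pumps, exchangers and PMCA partners 7 were higher, and only Atp2c1, a pump of the Golgi, was lower (-0.33, adjusted p = 7.38e-05). The PMCA partners basigin (Bsg, -0.02, adjusted p = 0.768) and neuroplastin (Nptn, 0.09, adjusted p = 0.0797) were not called. The ratio of Atp2b1 to Atp2b2 lay below WT by 0.41 in rd10 vehicle and by 0.26 in rd10 TMB on the log2 scale (exact permutation tests, adjusted over 18 tests of ratios, adjusted p = 0.00727 and 0.00909). It was 0.10 lower in rd10 DR than in WT (exact permutation test, adjusted p = 0.161), and 0.15 higher in rd10 TMB than in rd10 vehicle (exact permutation test, adjusted p = 0.0282, which exceeded 0.05 without rd10 TMB 5 or rd10 vehicle 1, 4 or 8, reaching at most 0.0537). Between the diets Atp2b2 was 0.15 lower (adjusted p = 0.0343), the 1 gene of the list called by edgeR with TMM, while 3 genes were called lower by DESeq2 and 3 without TMM.

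Ano2 was the 1 anoctamin called lower. Of 9 others 8 passed the filter, and 7 of them were higher in rd10 vehicle than in WT, with a median of 0.51. Ano1, the other calcium-activated chloride channel of the family, rose by 1.22 in rd10 vehicle (12.6 CPM, against 5.43 CPM in WT, adjusted p = 4.6e-05), by 1.42 in rd10 TMB (14.5 CPM, adjusted p = 6.02e-05) and by 1.22 in rd10 DR (12.5 CPM, adjusted p = 0.00188). Ano6, a lipid scramblase, rose by 0.89 in rd10 vehicle (adjusted p = 0.000426), Ano5 by 0.61 and Ano10 by 0.54. Between the diets edgeR called 0 of the 8 (2 at an unadjusted p under 0.05) and DESeq2 1, which was lower.

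The 11 other photoreceptor membrane channels and exchangers, 3 of which (Cnga1, Cngb1 and Slc24a1) are also in the rod list, were all called in rd10 vehicle against WT, 8 lower and 3 higher. The rod sodium-calcium-potassium exchanger Slc24a1 fell by 2.53, the rod cyclic nucleotide-gated channel subunits Cnga1 by 2.31 and Cngb1 by 2.27 on the log2 scale (adjusted p = 4.53e-07, 1.02e-06 and 3.15e-07). The subunits of the terminal's calcium channel, Cacna1f and Cacnb2, fell by 1.07 and 1.05. The cone channel genes Cnga3 and Cngb3 and the cone exchanger Slc24a2 were 0.40, 0.49 and 0.56 higher. With the diet 5 of the 11 were higher than on base diet, among them Slc24a1 (0.82), Cnga1 (0.76) and Cngb1 (0.69).

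**Figure D5:**
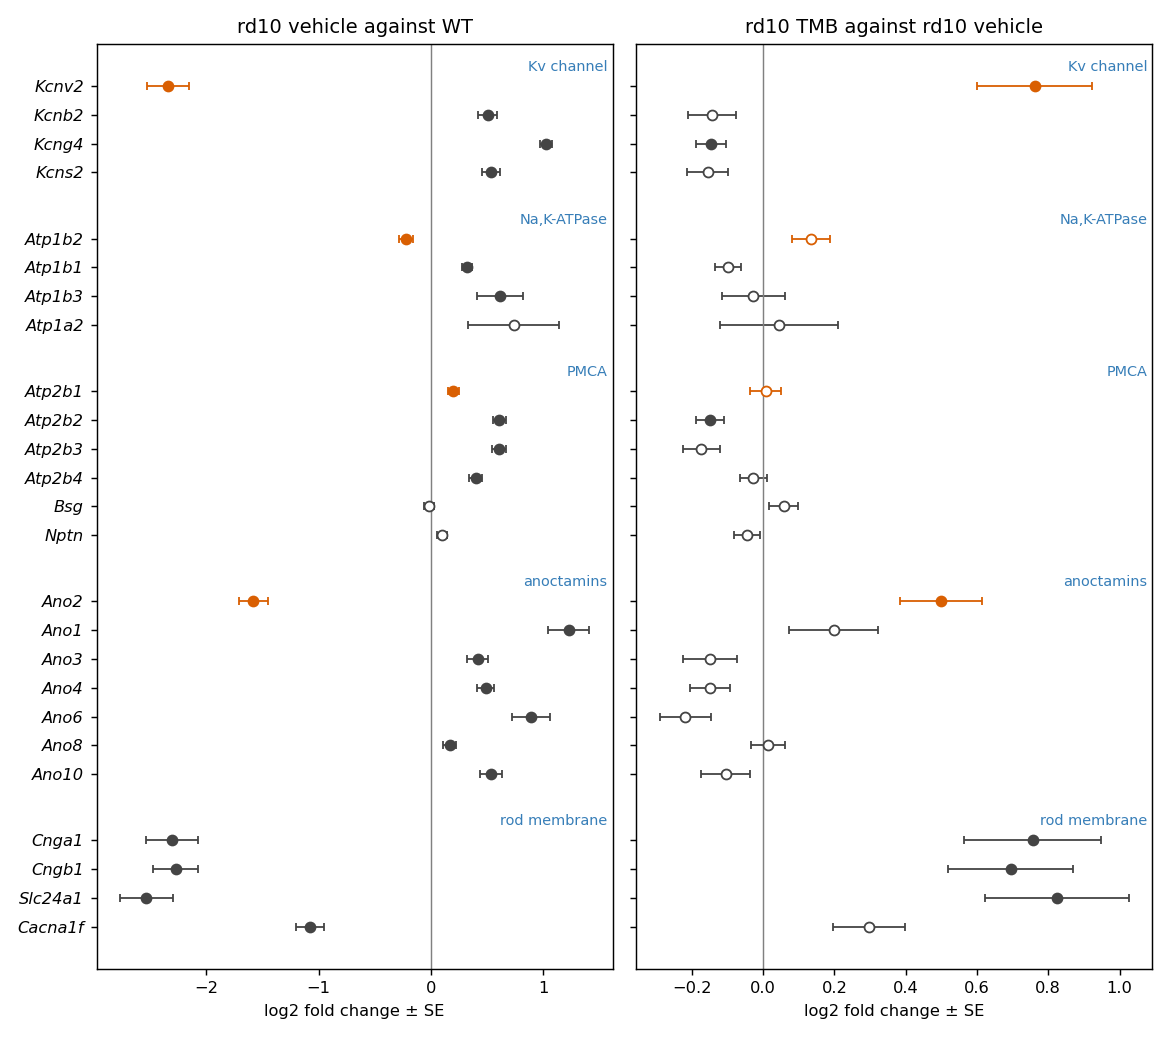
Log2 fold change ± SE (x axes, on different scales in the 2 panels) of the 4 genes (orange) and of relatives (grey) for rd10 vehicle against WT (left) and rd10 TMB against rd10 vehicle (right), grouped by channel or pump family. Filled points passed an adjusted p of 0.05. Kcnv2 and Ano2 lie with the rod membrane genes (Cnga1 at -2.31 and 0.76), and the relatives of Atp1b2, Atp2b1 and Ano2 lie mostly to the right of 0 against WT.

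The same lists were read in rd10 DR against WT. Of the relatives of Kcnv2 3 were higher (Kcng1 1.16, Kcng4 0.90 and Kcns1 0.83), of the 12 Na,K-ATPase and FXYD genes 7 were higher (Fxyd3 2.10, Fxyd5 0.93 and Fxyd2 0.92 led) and of the calcium genes 5 were higher (Slc8a1 0.34, Slc8a3 0.27, Atp2b2 and Atp2b3 0.26 each) and Atp2c1 lower. Of the 8 anoctamins 3 were higher, and of the 11 photoreceptor membrane genes 7 were lower and 2 higher.

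Over the 24 retinas, the genes whose log2 levels were most like those of Kcnv2 among 16039 genes with a mean of at least 1 CPM were Cngb1 (r = 0.997), Grk1, a receptor kinase of photoreceptors (0.996), Rgs9 (0.996) and Rgs9bp (0.995), of the complex that ends transducin signalling, and Agpat3 (0.995). For Ano2 they included Prkab1 (0.991), Impdh1 (0.988), Ankrd33 (0.987) and Nt5e (0.987). For Atp1b2 the best were lower, with Hk1, the hexokinase (0.921), Neurod1 (0.921), Pcare (0.919), Tmem150c (0.914) and Ptp4a3 (0.912), and for Atp2b1 lower still, with Gm16701 (0.868), Usp13 (0.836), Rnf145 (0.822), Neurl1a (0.814) and Extl2 (0.809). These r values describe 24 retinas that share the differences between the 4 groups. Between the 4 genes themselves r was 0.979 for Kcnv2 with Ano2, 0.828 and 0.827 for Atp1b2 with Kcnv2 and Ano2, and -0.45, -0.47 and 0.03 for Atp2b1 with Kcnv2, Ano2 and Atp1b2. The working name of photoreceptor inner segment channels and pumps therefore fitted the 4 genes unequally in whole retina. Kcnv2 and Ano2 had levels that went with those of the rod genes, and Atp1b2 and Atp2b1, which other retinal cells also express, stayed within 0.25 log2 units of 0 in all 6 comparisons with TMM. Without TMM Atp2b1 was 0.40 in rd10 vehicle and 0.37 in rd10 TMB against WT, and with RD10 retinas alone Atp1b2 was -0.28 in rd10 vehicle against rd10 DR. Small as its changes were, Atp1b2 still went with Kcnv2 over the 24 retinas (r = 0.828), where Atp2b1 had r = -0.45.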

How the data were processed

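Whole retinas of 24 mice were sequenced. Per the labels and the study's methods, the authors selected polyadenylated RNA, made libraries that do not mark the strand, trimmed with Trimmomatic, aligned to GRCm38 with STAR and counted per gene with HTSeq. The deposited table of nuclear genes holds these raw counts. The sources differ on single or paired reads, so a count is called a count. Columns of the authors' own comparisons hold DESeq2 fold changes and p-values and were not used, and the count of sample columns left without a match was 0. Copies of the WT columns were equal. No libraries were duplicates (68 pairs within groups, chi-square per gene 6.18 to 82.5). Depth was 56799680 to 86471014 counts per library.

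Each pair of groups was tested with edgeR 4.0.16 in R 4.3.3 (quasi-likelihood, default expression filter, TMM, Benjamini-Hochberg), after a test on simulated data. Alternatives were DESeq2 1.42.0, no TMM, no filter, 1 fit over all groups, sex or title prefix as a covariate, RD9 or RD10 retinas alone, and each retina left out. Levels relative to rod genes or partners were compared by exact permutation of retinas. Named were the 4 genes in each comparison, up to 4 called genes with the largest fold change per related list and comparison, fixed partners and relatives, and the 5 genes most like each. A few further relatives (Kcnb2, Cacna1f, Cacnb2, Cnga3, Cngb3 and Slc24a2) were chosen after their values were seen. The members and lists were chosen with earlier results of these data known. Without strand, reads of overlapping genes cannot be told apart. The spread between libraries is that between mice, since each library came from a different animal. Some relatives and the ratios to 2 partner genes are not reported here, though the adjustment of the ratio tests covers them.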

Additional observations from a re-analysis of the deposited data

Results flagged for a closer look

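Within groups of 4 to 8 retinas, the highest or lowest value was checked for standing apart from the rest (44 checks, of which chance gives about 1 in 20), and 3 values did. Kcnv2 was 354 CPM in rd10 DR 2, where the other rd10 DR retinas had 405 to 412 CPM. Atp1b2 was 1661 CPM in WT 3, where the other WT retinas had 1789 to 1799 CPM. Atp1b2 relative to the rod genes was -0.76 on the log2 scale in WT 4, where the other WT retinas had -0.66 to -0.64. No difference in the effect of the diet between sexes, or between RD9 and RD10 retinas, was called for any of the 4 genes by edgeR.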

How the results depend on the processing

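Of 979 values recomputed under an alternative, 908 kept their direction and their side of the threshold (for counts, stayed within 1.5 times), 36 lost and 3 gained a call, 25 changed sign and 7 counts of called genes moved. The cause of these changes was not tested. Relative levels in rd10 DR against WT with 1 retina left out were judged otherwise. They counted as kept if they held their sign and moved by less than 1 SD, whatever their adjusted p. Of these, the ratio of Atp2b1 to Atp2b2 passed the threshold in 1 refit (exact permutation test, adjusted p = 0.0429), which is not among the gained calls. No paired analysis was possible because the replicate numbers only name retinas of different mice. Against the median rod gene, Kcnv2 was 0.16 in rd10 TMB and 0.13 in rd10 DR against WT and 0.020 in rd10 TMB against rd10 vehicle. Against Pde6b alone it was 0.034 in rd10 DR against WT and -0.065 in rd10 TMB against rd10 DR, and Ano2 was 0.42 in rd10 vehicle and -0.0082 in rd10 TMB against rd10 DR. With the mean of the rod genes Ano2 had been 0.39 in rd10 vehicle against rd10 DR (exact permutation test, adjusted p = 0.0403), a call lost without rd10 vehicle 1, 5 or 8 or any rd10 DR retina (0.33 to 0.45 over 12 refits). Without TMM, Atp1b2 was -0.021 in rd10 vehicle, 0.078 in rd10 TMB and 0.12 in rd10 DR against WT, and Atp2b1 was -0.028 in rd10 TMB against rd10 vehicle and 0.15 in rd10 vehicle against rd10 DR. With RD9 retinas alone, Atp1b2 was -0.12 in rd10 vehicle and 0.0074 in rd10 TMB against WT and -0.18 in rd10 vehicle against rd10 DR. With RD10 retinas alone, Atp2b1 was 0.16 in rd10 TMB against WT and -0.025 in rd10 TMB against rd10 vehicle, and Atp1b2 was -0.16 in rd10 TMB against rd10 DR. In 1 fit over all groups, 1 of the 4 genes was called in rd10 DR against WT, with Ano2 at -0.33 and Atp2b1 at 0.14. For rd10 TMB against rd10 vehicle, RD9 and RD10 retinas alone gave 0 of the 4 genes called by edgeR (2 at an unadjusted p under 0.05 in each), with Kcnv2 at 0.83 and 0.66 and Ano2 at 0.54 and 0.47.

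With single retinas left out, Kcnv2 relative to the rod genes ranged over -0.032 to 0.061 in rd10 vehicle, -0.055 to 0.039 in rd10 TMB and -0.079 to 0.015 in rd10 DR against WT, -0.043 to 0.015 in rd10 TMB against rd10 vehicle and -0.0091 to 0.066 in rd10 TMB against rd10 DR. The ratio of Atp2b1 to Atp2b2 ranged over 0.13 to 0.18 in rd10 TMB against rd10 vehicle. In rd10 DR against WT, Atp1b2 ranged over -0.0027 to 0.055 and Atp2b1 over 0.12 to 0.19. In rd10 TMB against rd10 vehicle, 0 to 2 of the 4 genes were called, and Kcnv2 ranged over 0.68 to 0.85, Ano2 over 0.43 to 0.55 and Atp2b1 over -0.0064 to 0.037.

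Over all genes, rd10 TMB against rd10 vehicle gave 1152 calls, 1864 by DESeq2, 680 without the expression filter, and with single retinas left out 2, 446, 3, 575 and 372 without rd10 vehicle 1, 4, 5, 6 and 8, and 634, 220, 119, 404 and 652 without rd10 TMB 2, 4, 5, 6 and 7. Leaving out any other retina, or 1 retina in the other 5 comparisons, kept these counts within 1.5 times. RD9 retinas alone gave 7201 calls in rd10 TMB against WT (10879 with all retinas) and 2790 in rd10 TMB against rd10 DR (4809). Without TMM, 72.3%, 74.8% and 78.9% of calls in rd10 vehicle, rd10 TMB and rd10 DR against WT were higher (51.1%, 52.2% and 58.8% with it), 38.7% in rd10 TMB against rd10 vehicle (59.3%), and 69.5% and 70% in rd10 vehicle and rd10 TMB against rd10 DR (51.5% and 50.3%). Without the filter 74.6% were higher in rd10 TMB against rd10 vehicle. Without TMM the median of all genes was 0.22, 0.17 and 0.09 against WT in the same order, and 0.12 in rd10 vehicle against rd10 DR. Counts were deep for all 4 genes, and the number of retinas limits these comparisons.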
